A study of Mus musculus with 6 samples.

Results

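The semaphorins, plexins and neuropilins are a family of guidance ligands and their receptors. Members were chosen by gene symbol alone, as every row of the deposited count table named Sema3 to Sema7 with a letter, Plxna to Plxnd with a number, Nrp1 or Nrp2. The rule found 31 of 21878 genes, namely 20 semaphorins, 9 plexins and 2 neuropilins. The series holds 6 mouse RNA-seq libraries of Achilles tendon, 3 with a sham operation (titled Control) and 3 after Achilles tendon amputation (titled HO). They are called sham 1 to 3 and cut 1 to 3 here, after the numbers in their titles. Strain, age, sex, genotype and the time after surgery are not given in the labels, and neither is whether each library came from its own animal. Every p-value below is thus set against the variation among these libraries alone, part or all of which may be technical.

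Semaphorins share an extracellular sema domain. The class 3 members are secreted and most of them bind a neuropilin, which passes the signal on through a plexin of the A or D type. Classes 4 to 6 span the membrane and class 7 is held by a lipid anchor, and these bind plexins directly. Plexins switch off small GTPases of the Ras and Rap families, and the cytoskeleton of the cell then collapses or turns. The family is best known for guiding axons and vessels, and several members act between bone cells, as when Sema4d of osteoclasts acts on Plxnb1 of osteoblasts or Sema3a acts on Nrp1.

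Library totals ran from 23916839 to 31346730 counts. Every member was counted in every library, with 26 to 8348 counts, and 27 of 31 had over 100 counts in each, so that all 31 passed the filter on low counts. The libraries differed in muscle content. A list of 15 skeletal muscle genes took 16.7% to 18.2% of the sham counts, but 1.34% of cut 1, 0.415% of cut 2 and 12.6% of cut 3, and no listed muscle gene was at 0. Cut 3 also lay between the groups on the first principal component, at 9.57 against -76.7 to -60.7 in sham and 81.6 and 111 in cut 1 and 2. Other cell type markers moved beside the members. All 8 tested chondrocyte markers were higher (sums of 80.5 to 184 CPM of library total in sham and 2184 to 10252 in cut tendon), as were 4 of 6 tested osteoclast markers (68.9 to 78.1 and 405 to 812), while all 9 adipocyte markers were lower (2135 to 2961 and 320 to 723). Of 6 fibroblast markers, 3 were higher (3286 to 5419 and 14785 to 31031), and of 5 tested osteoblast markers none was called. By the same test, given below, 20.4% of all genes were higher and 12.3% lower. None of these markers was at 0 in all libraries, and their part in the members' values was not tested. The tendon markers were present. Tnmd, a membrane protein of mature tenocytes, stood at 64.1 ± 17.5 CPM (counts scaled to a common library size, here by the TMM method; SD, n = 3) in sham and 685 ± 292 in cut tendon, and Scx, the tenocyte transcription factor, at 11.8 ± 4.16 and 40.4 ± 24.1. In whole tissue, fewer cells of a type and less RNA per cell cannot be told apart.

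Among the 31 members, 6 were higher in cut tendon (Sema3c, Sema4f, Nrp2, Plxna1, Plxnb2 and Plxnc1) and 4 were lower (Sema3g, Sema5a, Plxna2 and Plxna4), by edgeR's quasi-likelihood test at a Benjamini-Hochberg adjusted p under 0.05 over 14561 genes. The 10 members called were 32.3% of the family, near the 32.7% called over all genes tested, so the share is no result about the family. The same held for each direction, with 19.4% of members against 20.4% of genes higher, and 12.9% against 12.3% lower. The median log2 fold change of the family was -0.08, beside -0.02 over all genes. Ranges of CPM did not overlap between the groups for 15 members, 9 higher and 6 lower, where 54.8% of all genes did not overlap (28.7% higher and 26.1% lower).

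The number of members called moved with the fit much as the number of genes did. DESeq2's Wald test called 9 members higher and 5 lower, where it called 42.5% of genes (23.3% higher, 19.2% lower). The replicate block gave 9 and 4, against 39% of genes (21.7% and 17.3%), and the muscle covariate 5 and 0, against 12.7% (9.3% and 3.45%). Muscle share was high in all sham libraries and low in cut 1 and 2, so this covariate follows the groups but for cut 3. Its fit leans on cut 3, and muscle content and surgery cannot be told apart by it. Without cut 3, 10 members were higher and 8 lower, against 58.2% of genes (28.5% and 29.7%). Without sham 1 they were 4 and 2, against 15.2% (10.6% and 4.55%), and without sham 2 they were 4 and 0, against 10.3% (7.39% and 2.95%). Without sham 3 they were 4 and 4, against 14.6% (9.19% and 5.4%). Without cut 1 they were 4 and 2, against 15.4% (10.8% and 4.68%), and without cut 2 they were 5 and 3, against 18.7% (12.6% and 6.05%). The 6 higher members were called in edgeR with DESeq2's size factors (32.5% of genes, 19.6% and 12.9%), upper quartile scaling (32.9%, 21.1% and 11.8%), no filter (24.9%, 15.3% and 9.68%) and muscle genes out of the library sizes (32.4%, 19.5% and 12.9%). They were also called by limma on log2(FPKM + 1) (33.3%, 18.2% and 15.1%) and on log2(FPKM + 0.1) (33.3%, 18.3% and 15%). At an unadjusted p under 0.05, 15 members passed, against 47.1% of genes (26.5% and 20.6%).

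**Figure D1:**
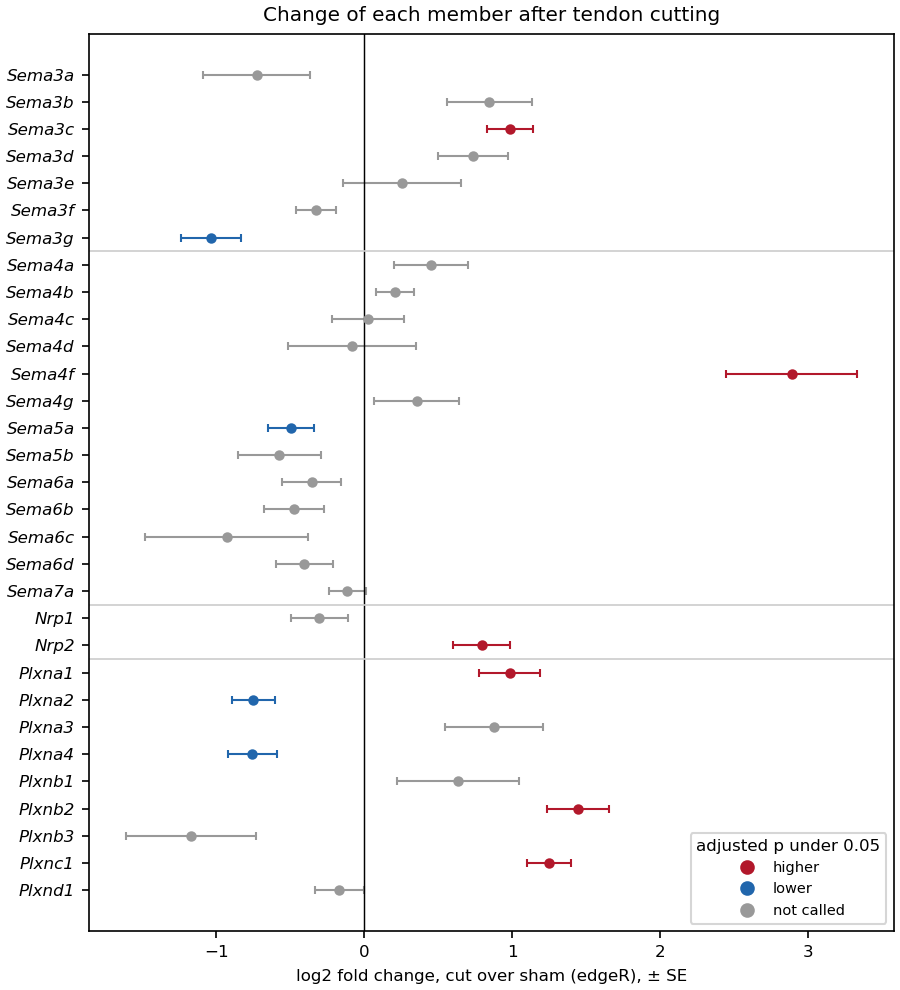
Log2 fold change of cut over sham tendon for each of the 31 members, with the standard error from edgeR's fit over 3 libraries per group, grouped from top to bottom into secreted class 3 semaphorins, class 4 to 7 semaphorins, neuropilins and plexins. Red points were called higher, blue points lower and grey points were not called; Sema4f lies farthest right, at 2.89, and the 2 lowest points, Plxnb3 at -1.17 and Sema3g at -1.03, differ in that only Sema3g was called.

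The start regions of 3 members show how unlike their sequence contexts are. They are those of Sema3c and Sema4f, which were higher under every alternative tried, and of Sema3g, the secreted member that was lower. Plxnb2 and Plxnc1 were also higher under every alternative. Their start regions lie partly or wholly inside the gene and are not printed. Each run is the 250 bases before the RefSeq start on GRCm38.p6, 5′ to 3′ on the gene's strand, outside the gene itself. Capitals mark the GC box GGGCGG on either strand, to which factors of the SP and KLF families bind.
Sema3c, chr5:17574566-17574815, plus strand: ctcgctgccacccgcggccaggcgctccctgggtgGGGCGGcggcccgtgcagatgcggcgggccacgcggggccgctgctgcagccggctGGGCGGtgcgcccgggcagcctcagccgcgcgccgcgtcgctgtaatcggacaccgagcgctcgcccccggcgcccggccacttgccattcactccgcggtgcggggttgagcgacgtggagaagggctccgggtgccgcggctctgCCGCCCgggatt
Sema4f, chr6:82939770-82940019, minus strand: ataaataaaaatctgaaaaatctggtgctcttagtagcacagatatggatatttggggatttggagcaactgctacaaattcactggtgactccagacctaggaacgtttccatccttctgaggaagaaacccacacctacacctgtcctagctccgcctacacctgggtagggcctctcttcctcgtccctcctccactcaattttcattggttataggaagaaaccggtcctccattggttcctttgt
Sema3g, chr14:31217623-31217872, plus strand: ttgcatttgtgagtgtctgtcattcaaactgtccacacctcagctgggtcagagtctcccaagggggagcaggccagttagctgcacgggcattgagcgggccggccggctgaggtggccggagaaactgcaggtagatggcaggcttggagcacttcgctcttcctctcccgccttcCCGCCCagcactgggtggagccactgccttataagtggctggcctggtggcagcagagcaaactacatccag

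The Sema3c region was 78.4% G and C and held 3 GC boxes, that of Sema3g was 60.4% with 1, and that of Sema4f was 46.0% with none. The unprinted Plxnc1 region was 68.8% with 4, and those of Plxnb2 were 69.2% with 4 and 63.6% with 3. RefSeq start regions were matched for 26 of the 31 members, 37 in all because some genes have several starts. A GC box was found in 27 of these 37, and in 32.7% of 32851 start regions of the same length over all genes. The CACCC box CCACNCCC, a KLF-type element whose ends can share C bases with a GC box, was found on either strand in 11 of 37 and in 15.9% of all. None of the 3 printed regions held it. These are matches of letters in a short window and say nothing of binding.

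Of the 7 secreted semaphorins, Sema3c was higher, Sema3g was lower and 5 were not called (14.3% in each direction, against 20.4% and 12.3% of all genes). Sema3c, which guides neural crest cells and vessels through neuropilins and Plxnd1, stood at 134, 135 and 121 CPM in sham 1 to 3 and at 269, 279 and 227 CPM in cut 1 to 3. The lowest cut library was above every sham library. The change was 0.99 ± 0.15 on the log2 scale (SE), a 1.98-fold increase (adjusted p = 0.00739), and the call held under each of 15 alternatives. Per length, the level of Sema3c rose from 26.3 ± 2.33 to 52.3 ± 8.08 FPKM, which also divides by gene length, which made it the member with the highest mean in cut tendon and the second in sham.

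Sema3g, a secreted ligand known from endothelium, stood at 38.0, 37.4 and 41.0 CPM in sham and 19.9, 13.7 and 23.3 CPM in cut 1 to 3. All cut libraries lay below all sham libraries, and Sema3g fell by 1.03 ± 0.20 on the log2 scale (adjusted p = 0.0136). It was not called without sham 2 (-1.08) or sham 3 (-1.02), nor with the muscle list as a covariate (-0.60). Endothelial markers were lower beside it. Of 10 listed, 6 were called lower (12.3% of all genes) and all 10 lay lower without overlap (26.1% of all genes). Their summed levels were 980 to 1155 CPM of library total in sham and 500 to 744 in cut tendon. No endothelial marker was at 0, and the part of these cells in the fall of Sema3g was not tested. The log2 ratio of Sema3c to Sema3g within a library, which no library scaling can alter, was 1.64 ± 0.16 in sham and 3.69 ± 0.54 in cut tendon (n = 3 each; exact two-sided permutation p = 0.1, the smallest that 3 against 3 allow). The pair was chosen after values were seen, with Sema3c higher and Sema3g lower in all cut libraries. This p was thus fixed in advance and adds no support.

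Sema3b and Sema3d also lay higher in all cut libraries, but neither was called. Sema3b, a ligand of neuropilins, stood at 85.2, 60.2 and 46.8 CPM in sham and 105, 151 and 89.4 CPM in cut tendon, a log2 change of 0.85 ± 0.29 (adjusted p = 0.0634). Sema3d, a guide of neural crest and endothelial cells, stood at 56.7, 55.3 and 37.3 CPM and then 79.0, 104 and 66.0 CPM, a log2 change of 0.74 ± 0.24 (adjusted p = 0.0535). Blocking on the replicate number called both (0.85 and 0.74, adjusted p = 0.0466 and 0.0214), as did DESeq2 (adjusted p = 0.0237 and 0.0236) and the fit without cut 3 (0.999 and 0.88). With the muscle covariate they were 0.35 and 0.30 and not called.

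The other secreted members had values that the test did not separate. Sema3a, the founding repulsive ligand of the family and a regulator of bone through Nrp1, stood at 42.6, 32.9 and 16.5 CPM in sham and 16.95, 23.8 and 14.9 CPM in cut tendon, with sham 3 inside the cut range. Its log2 change was -0.73 ± 0.36 (adjusted p = 0.158), and only without sham 3 was it called (-1.06). Sema3f, which acts through Nrp2, had a log2 change of -0.33 ± 0.14 (adjusted p = 0.104), from 30.7 ± 3.95 to 24.5 ± 1.76 CPM. Sema3e, which binds Plxnd1 without a neuropilin, stood at 10.3, 10.7 and 6.15 CPM in sham and 10.4, 16.1 and 5.84 CPM in cut tendon, with a log2 change of 0.25 ± 0.40. Its sign turned without cut 2 (-0.15) and with the muscle covariate (-0.81).

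Position on the chromosome did not group the secreted members by direction. In GRCm38.p6, Sema3d, Sema3a, Sema3e and Sema3c follow each other on chromosome 5, from 12383161 to 17730268, with gaps of 0.536, 0.422 and 3.32 Mb. Their log2 changes in that order were 0.74, -0.73, 0.25 and 0.99. Sema3b and Sema3f lie 72.3 kb apart on chromosome 9 (107597674 to 107710475), and their values were 0.85 and -0.33. Sema3g lies alone on chromosome 14.

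Summed over the 7 genes, the secreted class stood at 76.7, 69.4 and 55.3 FPKM in sham and 112, 114 and 83.7 FPKM in cut tendon (log2 ratio of the means 0.62; exact permutation p = 0.1). Sema3c supplied 39.5% ± 3.28 of that sum in sham and 50.8% ± 2.86 in cut tendon, and Sema3b 21.1% ± 3.8 and 24.8% ± 3.39. The share of Sema3g was 12.8% ± 2.43 and 4.15% ± 1.62.

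**Figure D2:**
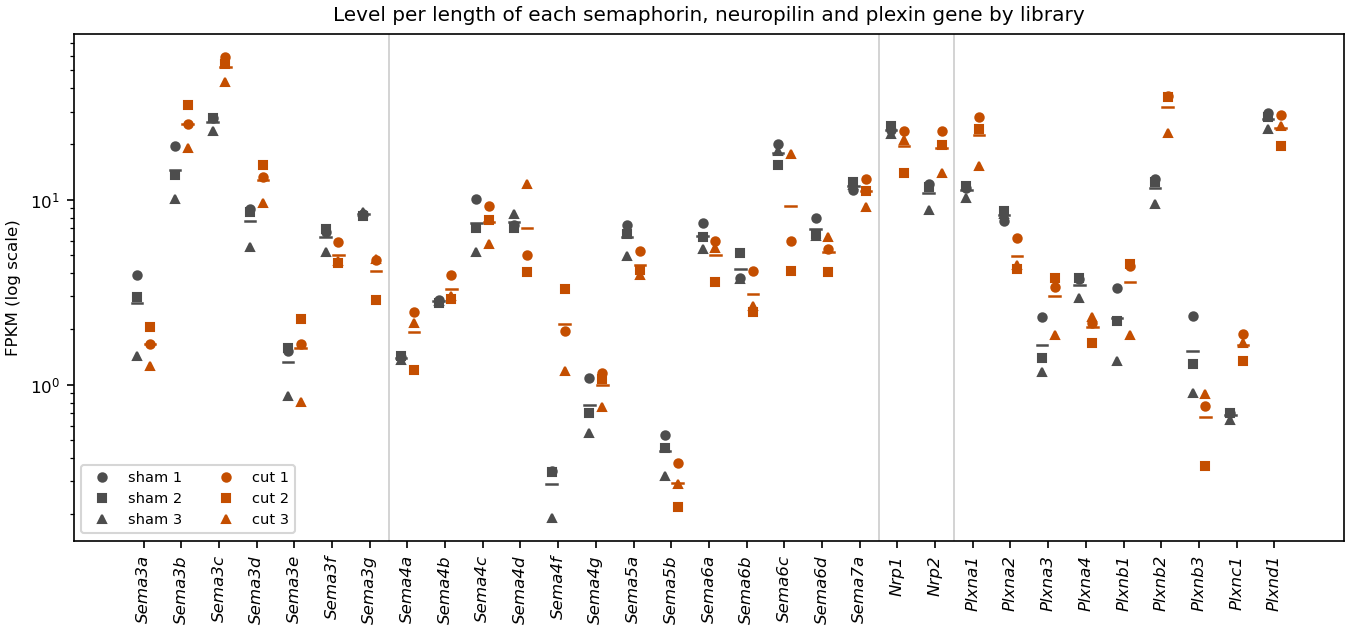
FPKM, a level per gene length, of every member in each of the 6 libraries on a log scale, with grey symbols for sham, orange symbols for cut tendon and short lines at the group means. Sema3c, Plxnb2 and Sema3b have the highest cut means, at 52.3, 31.8 and 25.8 FPKM, and Sema4f moves from the lowest sham mean, 0.29, to 2.14.

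Among the 13 membrane-bound semaphorins of classes 4 to 7, Sema4f was higher, Sema5a was lower and 11 were not called (7.69% in each direction, against 20.4% and 12.3% of all genes). Sema4f, a transmembrane member described in brain and in Schwann cells, had the largest fold change of the family. It was counted 41, 44 and 26 times in sham and 278, 505 and 186 times in cut tendon. In CPM these were 1.68, 1.67 and 0.993 against 8.96, 17.04 and 6.24, so that the groups stood well apart although cut libraries differed among themselves. The log2 change was 2.89 ± 0.44, a 7.43-fold increase (adjusted p = 0.00714). It was called under all 15 alternatives, and the muscle covariate lowered it to 1.88. Its sham level, 0.29 ± 0.0854 FPKM, was the lowest mean of the 31 genes, and its cut level, 2.14 ± 1.06 FPKM, ranked 23.

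Schwann cell markers are given beside it. Of 11 listed, 6 were called lower and none higher (12.3% and 20.4% of all genes), and the summed level was 539 to 1366 CPM of library total in sham and 374 to 489 in cut tendon. The markers did not all go 1 way. The log2 change was negative for 8 and positive for 3. Without overlap between the groups, 6 lay lower and 1 higher (26.1% and 28.7% of all genes). No marker was at 0, and the part of these cells in the Sema4f values was not tested.

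Sema5a, a guidance protein with thrombospondin repeats, stood at 79.3, 72.5 and 57.7 CPM in sham and 54.0, 48.4 and 46.3 CPM in cut tendon. The lowest sham and the highest cut values lay 3.77 CPM apart, and Sema5a fell by 0.50 ± 0.15 on the log2 scale (adjusted p = 0.0489). This p lay just under the threshold. The call was lost without sham 1 (-0.40), sham 2 (-0.49), cut 1 (-0.56) or cut 2 (-0.48), with upper quartile scaling (-0.44), with no filter (-0.52), on FPKM (-0.41 and -0.47) and with the muscle covariate (-0.57). Its close relative Sema5b was low throughout, at 2.20 ± 0.492 and 1.48 ± 0.302 CPM, and was not called (log2 -0.57 ± 0.28).

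Sema6c, Sema4d and Sema6d split the cut libraries. Sema6c, a transmembrane ligand of A-type plexins, stood at 87.7, 68.7 and 85.5 CPM in sham, at 24.5 and 19.1 in cut 1 and 2, and at 83.4 in cut 3. Cut 3 thus lay within the sham range while the other cut libraries lay far below it. The log2 change was -0.93 ± 0.55 (adjusted p = 0.222), -1.89 without cut 3, where it was called, and 0.19 with the muscle covariate. The muscle list took 1.34%, 0.415% and 12.6% of the counts of cut 1 to 3, in the same order as the Sema6c level of cut 1, 2 and 3. That covariate follows the groups but for cut 3, so it cannot tell muscle content from surgery. The part of muscle tissue in the Sema6c values was not tested otherwise.

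Sema4d, the ligand of Plxnb1 that leukocytes and osteoclasts carry, stood at 41.3, 40.3 and 49.98 CPM in sham, 26.6 and 24.3 in cut 1 and 2, and 73.4 in cut 3. Cut 3 was above all sham libraries and the other cut libraries were below them. With all libraries the log2 change was -0.08 ± 0.43. Without cut 3 it was -0.79 and called (adjusted p = 0.00181), without cut 1 or cut 2 it was 0.16 and 0.18, and with the muscle covariate it was 0.83 and called higher (adjusted p = 0.0378), so its direction rested on cut 3. Over all 15 alternatives its adjusted p ran from 0.00181 to 0.995. Sema6d, which binds Plxna1, was 66.1, 55.2 and 55.7 CPM in sham, 42.0 and 35.7 in cut 1 and 2 and 56.0 in cut 3, with a log2 change of -0.40 ± 0.19 that was called only without cut 3 (-0.60).

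**Figure D3:**
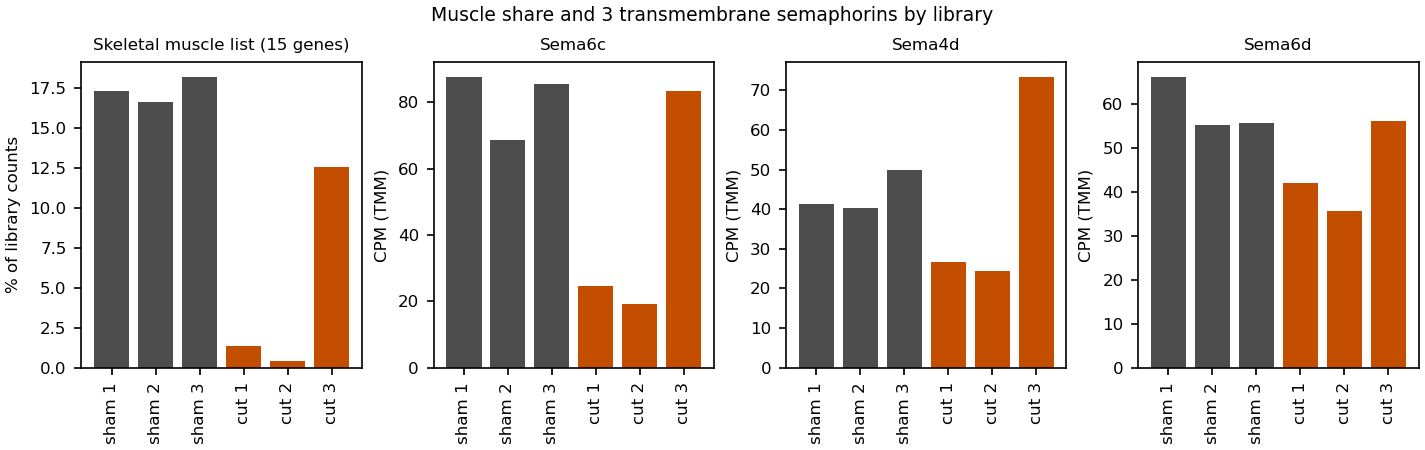
Percent of library counts from 15 skeletal muscle genes, and CPM of Sema6c, Sema4d and Sema6d, as bars for each of the 6 libraries, grey for sham and orange for cut tendon. Cut 1 and 2 are low in all 4 panels, while cut 3, at 12.6% muscle counts, reaches 83.4 CPM for Sema6c, 73.4 CPM for Sema4d and 56.0 CPM for Sema6d.

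The remaining membrane-bound members changed little or varied widely. Sema7a, the lipid-anchored member that signals through integrins and Plxnc1, stood at 37.3, 41.4 and 41.6 CPM in sham and at 39.9, 38.9 and 32.3 CPM in cut tendon (log2 -0.11 ± 0.13). Sema4c, a ligand of Plxnb2, had a log2 change of 0.03 ± 0.25 whose sign differed between alternatives, from -0.28 to 0.28. Sema4b stood at 12.0 ± 0.437 and 13.9 ± 1.25 CPM and Sema4g at 3.34 ± 1.11 and 4.26 ± 0.737 CPM.

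Sema4a, a ligand found on myeloid and lymphoid cells, stood at 8.99, 9.31 and 9.24 CPM in sham, at 14.8 in cut 1 and 3, and at 8.10 in cut 2. Its log2 change was 0.45 ± 0.25, and it was called only without cut 2 (0.69). Sema6a and Sema6b, ligands of A-type plexins, had log2 changes of -0.36 ± 0.20 and -0.48 ± 0.20 with overlapping groups, and neither was called under any alternative. Summed over the 13 genes, this class stood at 69.6 to 81.5 FPKM in sham and 50.1 to 70.4 FPKM in cut tendon (exact permutation p = 0.2). As a share of all 31 genes it was 30.6% ± 1.64 in sham and 20.9% ± 4.98 in cut tendon, with no overlap (exact permutation p = 0.1, the smallest possible). That share also falls as other classes rise, and the sum of all 31 genes was 244 ± 26.7 and 298 ± 35.0 FPKM. Sema6c, which split the cut libraries, supplied 24.1% ± 2.54 of the class sum in sham. In cut 1 to 3 it supplied 9.33%, 8.19% and 25.1%, so the fall is not one of the class as a whole.

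Of the 2 neuropilins, which are co-receptors for secreted semaphorins and for forms of VEGF, Nrp2 was higher and Nrp1 was not called. Nrp2, prominent in lymphatic and venous endothelium, stood at 96.8, 94.2 and 74.5 CPM in sham and 175, 166 and 120 CPM in cut tendon, with every cut library above every sham library. It rose by 0.79 ± 0.20 on the log2 scale, 1.73-fold (adjusted p = 0.0261). The call was lost without any single library other than cut 3 (0.86, 0.82, 0.65, 0.69 and 0.74 without sham 1, 2, 3, cut 1 and cut 2) and with the muscle covariate (0.44). Of 4 lymphatic markers, 1 was called lower (25%, against 12.3% of all genes) and none higher (against 20.4%). Without overlap between the groups, 1 lay lower and 1 higher (26.1% and 28.7% of all genes). None was at 0, and sums were 137 to 172 CPM of library total in sham and 107 to 145 in cut tendon.

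Nrp1, the receptor chain for Sema3a and a VEGF co-receptor of endothelium and myeloid cells, stood at 154, 165 and 156 CPM in sham and 143, 95.8 and 146 CPM in cut tendon. The cut libraries were all below the sham libraries, yet the change of -0.30 ± 0.19 was not called (adjusted p = 0.249). The log2 ratio of Nrp2 to Nrp1 was -0.96, -1.10 and -1.36 in sham and -0.000339, 0.50 and -0.58 in cut tendon, higher in all cut libraries (exact permutation p = 0.1, the smallest possible). As Nrp2 lay higher and Nrp1 lower in all cut libraries, this p was fixed in advance and adds no support. Nrp2 made up 31.3% ± 2.95 of neuropilin FPKM in sham and 49.5% ± 9.25 in cut tendon, while the sum of the pair was 34.8 ± 2.85 and 38.5 ± 7.37 FPKM (exact permutation p = 0.6).

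Of the 9 plexins, Plxna1, Plxnb2 and Plxnc1 were higher, Plxna2 and Plxna4 were lower and the other 4 did not pass. These are 33.3% and 22.2% of the plexins, against 20.4% and 12.3% of all genes. Plxnb2, the receptor for Sema4c and Sema4d in many epithelial and mesenchymal cells, stood at 87.8, 85.6 and 68.5 CPM in sham and 232, 258 and 168 CPM in cut tendon. The lowest cut value was 80.6 CPM above the highest sham value. Plxnb2 rose by 1.44 ± 0.21, 2.72-fold (adjusted p = 0.00639), and was called under all 15 alternatives, down to 1.01 with the muscle covariate. Its level per length went from 11.6 ± 1.85 to 31.8 ± 7.58 FPKM, from 17.1% ± 0.866 to 33.5% ± 3.79 of all plexin FPKM. Plxnd1, the receptor of Sema3e and, with neuropilins, of Sema3c, led the plexins in sham, at 27.2 ± 2.81 FPKM. It was not called (24.4 ± 4.61 FPKM in cut tendon, log2 -0.17 ± 0.16), and its share of plexin FPKM was 40.1% ± 0.523 and 26.2% ± 6.13.

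Plxnc1, the receptor of Sema7a on immune and nerve cells, stood at 5.72, 5.75 and 5.54 CPM in sham and 14.3, 11.6 and 14.6 CPM in cut tendon, a change of 1.25 ± 0.15 or 2.38-fold (adjusted p = 0.00454). The groups did not overlap. With the muscle covariate the change was 1.43. Macrophage markers were higher beside it. Of 11 listed, 10 were called higher (background 20.4%) and Cd163 was not called, with none at 0. Cd163 lay lower in all cut libraries, at -1.26 ± 0.50 (adjusted p = 0.0947). The macrophage markers had sums of 414 to 562 CPM of library total in sham and 1223 to 1561 in cut tendon. Their part in the Plxnc1 values was not tested.

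The A-type plexins, which pair with neuropilins, moved in opposite directions. Plxna1, also the partner of Sema6d, stood at 103, 106 and 95.8 CPM in sham and 232, 225 and 145 CPM in cut tendon, and rose by 0.98 ± 0.21, 1.98-fold (adjusted p = 0.017). It was lost without any single library other than cut 3 (0.99, 0.99, 0.91, 0.87 and 0.90 without sham 1, 2, 3, cut 1 and cut 2) and with the muscle covariate (0.51). Plxna2, a receptor of Sema6a, stood at 82.9, 95.5 and 96.2 CPM in sham and 63.0, 48.4 and 51.7 CPM in cut tendon, and fell by 0.75 ± 0.15 on the log2 scale (adjusted p = 0.0132). It was not called without sham 2 (-0.74) or with the muscle covariate (-0.74, adjusted p = 0.0578; over the alternatives 0.000403 to 0.0585).

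Plxna4, the main A-type receptor of sensory and sympathetic axons, stood at 46.0, 47.1 and 38.2 CPM in sham and 25.0, 22.0 and 30.8 CPM in cut tendon, and fell by 0.76 ± 0.16 on the log2 scale (adjusted p = 0.018). The call was lost when sham 1 (-0.72), sham 2 (-0.72) or cut 1 (-0.73) was left out, and with the muscle covariate (-0.46). The log2 ratio of Plxna1 to Plxna2 was 0.60, 0.45 and 0.29 in sham and 2.17, 2.51 and 1.78 in cut tendon, a difference of 1.71 that leaves a gap of over 1 between the groups (exact permutation p = 0.1, the smallest possible). The pair was chosen after values were seen, with Plxna1 higher and Plxna2 lower in all cut libraries, so this p was fixed in advance. Plxna3 stood at 16.9, 10.3 and 9.01 CPM in sham and 23.0, 29.0 and 14.5 CPM in cut tendon, with cut 3 inside the sham range. Its change of 0.88 ± 0.33 was not called (adjusted p = 0.0846), but was with the replicate block (0.88, adjusted p = 0.0486), in DESeq2 (adjusted p = 0.0414) and without cut 3 (1.11).

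Plxnb1 and Plxnb3 were not called. Plxnb1, the receptor of Sema4d on osteoblasts and other cells, stood at 35.4, 23.6 and 15.1 CPM in sham and 43.6, 50.4 and 21.1 CPM in cut tendon, a log2 change of 0.64 ± 0.41 that turned to -0.30 with the muscle covariate and was called without cut 3 (0.93). Plxnb3, a receptor of Sema5a, stood at 15.8, 8.86 and 6.45 CPM in sham and 4.80, 2.60 and 6.41 CPM in cut tendon, so that sham 3 and cut 3 all but met, at -1.17 ± 0.44 (adjusted p = 0.0834). It was called in DESeq2 (adjusted p = 0.0249) and without cut 3 (-1.48). Summed over the 9 genes, plexins stood at 74.3, 70.4 and 59.3 FPKM in sham and 112, 95.3 and 76.3 FPKM in cut tendon (log2 ratio 0.48; exact permutation p = 0.1).

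**Figure D4:**
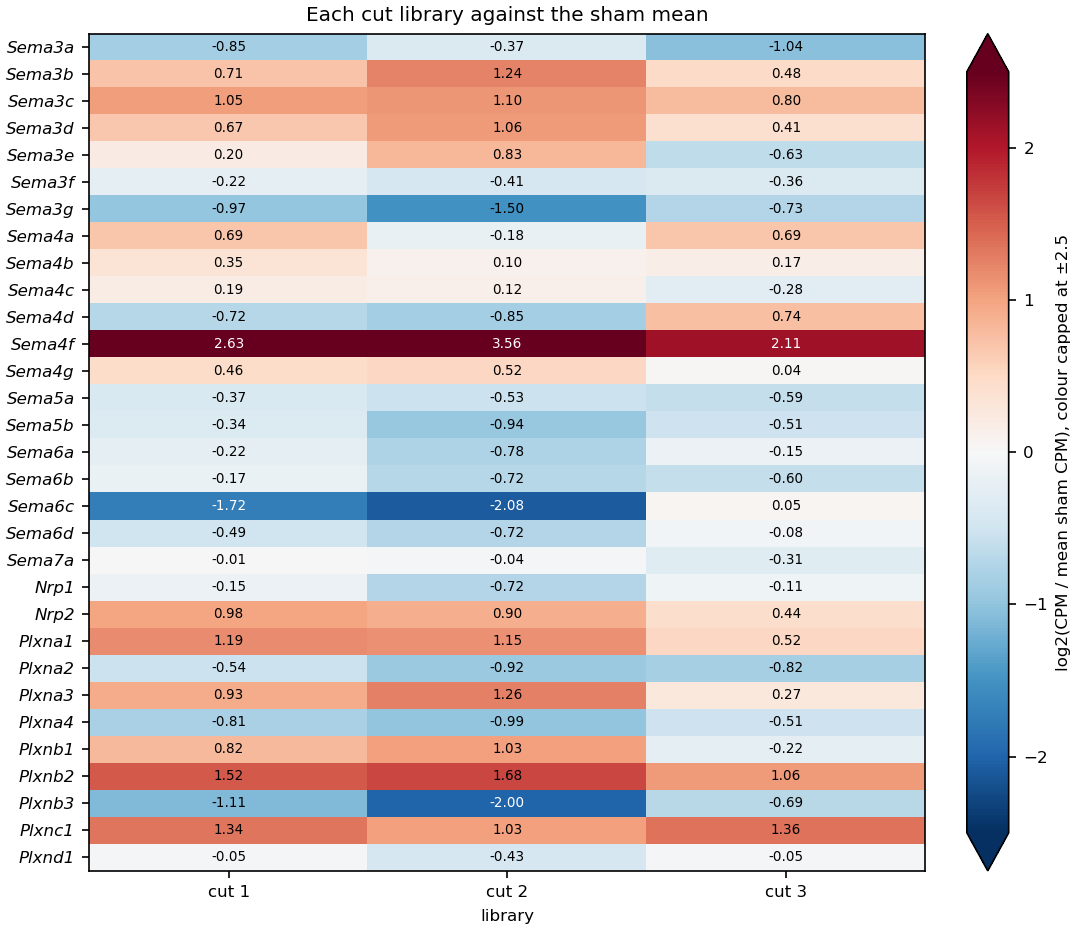
Log2 of the CPM of each member in cut 1, 2 and 3 over its mean CPM in the 3 sham libraries, printed in each cell and shaded red above and blue below the sham mean. Sema3c, Sema4f, Nrp2, Plxna1, Plxnb2 and Plxnc1 are above the sham mean in all 3 cut libraries, and Sema3e, Sema4c, Sema4d, Sema6c and Plxnb1 have the opposite sign in cut 3 from cut 1 and 2.

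Set side by side, several known ligand and receptor pairs held a member of each kind. For Sema3c and its receptors the log2 changes were 0.99 for the ligand, 0.79 for Nrp2, -0.30 for Nrp1 and -0.17 for Plxnd1. For Sema7a and Plxnc1 they were -0.11 and 1.25, for Sema4c and Plxnb2 0.03 and 1.44, and for Sema6d and Plxna1 -0.40 and 0.98. In each of these last pairs the receptor was called and the ligand was not, and the difference between the pair's members was not tested. For Sema6a and Plxna2 the values were -0.36 and -0.75, and for Sema5a and Plxnb3 -0.50 and -1.17.

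Other genes of the pathway were taken from 4 lists with 73 symbols, of which 71 were tested, 24 were higher, 9 were lower and 38 were not called. That is 33.8% higher and 12.7% lower, beside 20.4% and 12.3% of all genes, so the share lower was near the background. The lists were written with earlier results of these data known. Nothing is thus concluded from the shares higher, here or in each list below. Without a single library, 7 to 32 were higher (7 without sham 2, 9 without sham 3, 12 without cut 1, 14 without sham 1, 15 without cut 2) and 4 to 14 were lower (4 without sham 2, 5 without sham 1 or cut 1, 14 without cut 3). Of all genes, 7.39%, 9.19% and 10.8% were higher without sham 2, sham 3 and cut 1. Without sham 1, cut 2 and cut 3 these shares were 10.6%, 12.6% and 28.5%. The shares lower were 2.95%, 4.55%, 4.68% and 29.7% without sham 2, sham 1, cut 1 and cut 3. With the muscle covariate 11 pathway genes were higher and 4 lower, where 9.3% and 3.45% of all genes were.

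Of 19 tested receptors and co-receptors that semaphorins or neuropilins use beside plexins, 8 were higher and 4 lower (42.1% and 21.1%, against 20.4% and 12.3% of all genes), with a median of 0.34. Without sham 2, sham 3 or cut 1 only 5 were higher, and without sham 1 or 2 only 1 was lower (2 without cut 1), where 7.39%, 9.19% and 10.8% of genes were higher without sham 2, sham 3 and cut 1, and 4.55%, 2.95% and 4.68% were lower without sham 1, sham 2 and cut 1. Trem2, a myeloid receptor that associates with Plxna1, stood at 2.04, 1.97 and 1.03 CPM in sham and 16.3, 13.1 and 11.8 CPM in cut tendon and rose by 3.03 ± 0.30 (adjusted p = 0.00345). Cd72, a receptor of Sema4d on B cells and other leukocytes, rose by 3.01 ± 0.30, from 0.948 ± 0.346 to 7.67 ± 1.01 CPM. The VEGF receptor Flt1 went from 137 ± 11.8 to 47.7 ± 16.7 CPM, a log2 change of -1.52 ± 0.26. The integrin chain Itga1, part of a Sema7a receptor, changed by -0.71 ± 0.14 (not called without sham 1 or 2, at -0.62 and -0.74, or with the muscle covariate, at -0.60). The integrin chain Itgb1 of the same list went the other way, by 0.91 ± 0.21, from 439 ± 6.83 to 822 ± 103 CPM (adjusted p = 0.0215). It is named after its values were seen, and its alternatives are not given here. Timd2, a mouse receptor of Sema4a, had no count in any library.

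In the list of 41 intracellular plexin partners, 13 were higher and 3 lower (31.7% and 7.32%, against 20.4% and 12.3% of all genes), with a median of 0.28. Those higher numbered 5, 1, 2, 4 and 6 without sham 1, sham 2, sham 3, cut 1 and cut 2, where 10.6%, 7.39%, 9.19%, 10.8% and 12.6% of genes were higher. Those lower numbered 7 without cut 3, where 29.7% of genes were lower. Cfl1, cofilin, which severs actin filaments, rose by 1.45 ± 0.20, from 102 ± 4.67 to 279 ± 63.3 CPM. Rap1b, a small GTPase that plexins inactivate, rose by 0.86 ± 0.16 (not called without sham 1 or 2, at 0.79 and 0.85, or with the muscle covariate, at 0.56). Mical3, a flavoprotein of the MICAL family, went from 219 ± 12.1 to 91.7 ± 21.2 CPM, a log2 change of -1.26 ± 0.20, and the MICAL-like gene Micall1 changed by -0.94 ± 0.13.

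Of 5 VEGF family ligands that bind neuropilins or their partners (20% called lower, against 12.3% of all genes), Vegfa alone was called. It stood at 326, 406 and 365 CPM in sham and 63.8, 58.3 and 96.7 CPM in cut tendon, and fell by 2.33 ± 0.25 on the log2 scale (adjusted p = 0.00387), so that the highest cut library held under 100 CPM and the lowest sham library over 300. The list median was -0.31.

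Among 6 proteases that process semaphorins or related surface proteins, 3 were higher and 1 lower (50% and 16.7%, against 20.4% and 12.3% of all genes), with a median of 0.59. Adam17, a sheddase, rose by 0.99 ± 0.13, from 47.5 ± 2.59 to 94.4 ± 10.3 CPM, and the proprotein convertase Pcsk5 by 1.75 ± 0.32 (not called without sham 2, at 1.78). Pcsk6 fell by 0.62 ± 0.16 on the log2 scale, a call lost when sham 1, sham 2, cut 1 or cut 2 was left out (-0.52, -0.63, -0.72 and -0.52), on FPKM (-0.57 and -0.61) and with the muscle covariate (-0.53). Furin, chosen here after its values were seen because it cleaves secreted semaphorins, rose by 1.10 ± 0.22 with means of 97.3 and 209 CPM. That call was lost when sham 1, 2 or 3 was left out (1.08, 1.14 and 1.03) and with the muscle covariate (0.57).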

How the data were processed

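A mirVana kit gave the RNA, and an Illumina TruSeq stranded kit with Ribo-Zero Gold depletion of ribosomal RNA gave the libraries, per the labels' protocols. Trimmomatic, HISAT2 and GRCm38.p6 are named in the submitters' processing notes. The counting program and its strand setting are not given in the sources used here. Reads of Plxna1, Plxna4, Plxnb1 and Sema4c may include those of genes that share exon sequence on the other strand in GENCODE M21, and those of Nrp1, Plxnc1 and Sema4a may include Mir1903, Gm48718 and Mir7011 on the same strand, none of which is in the count table. The deposited counts are whole reads per gene, not normalized. The deposited FPKM are the authors' counts divided by gene length and library total, checked from the values (implied lengths whole within 0.01 bases for 100% of those checked).

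Counts were fitted in edgeR 4.0.16 (R 4.3.3) with TMM scaling and the quasi-likelihood test, for the 14561 genes that filterByExpr kept (7317 were not tested); p-values were adjusted by Benjamini-Hochberg and the threshold was 0.05. Each SE was taken as the size of the log2 fold change over the root of its F statistic. The common biological coefficient of variation was 0.296. In simulated data of 14561 genes, of which 200 were changed, 77% of genes changed 4-fold and 14% of those changed 2-fold were called, and 5 unchanged genes were called. In the real data 32.7% of genes were called. The adjusted p depends on that share, so the simulated rates do not measure how often such changes were called here. Summed FPKM and ratios were compared by exact permutation with scipy 1.17.1; ratios were chosen after values were seen. No 2 libraries were alike within sampling noise. Same-numbered sham and cut libraries deviated together from their group means (r = 0.259, 0.13 and 0.409 across genes). Each exceeded 0.1, the rule for trying the numbers as pairs. The main fit did not pair the samples, and every call in the text is from that unpaired fit unless another fit is named. Unlike-numbered pairs ran from -0.332 to 0.244, and cut 2 correlated better with sham 1 than with sham 2. The deviations are a hint, not a labelled pairing, and a fit with the replicate block is given where it changed a call.

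The members were found by the symbol rule, which used no values. Earlier results of these data were known when that rule was applied and the gene lists were written. All members are named, as are the 2 members of each pathway list with the smallest p among those called in each direction. Figf was not in the tables under that symbol, and Vegfd stood for it. Gene positions and start regions are from RefSeq on GRCm38.p6. Positions matched for 31 of 31 members and start regions for 26. Alternatives were DESeq2 1.42.0 (its size factors in edgeR, or its Wald test), upper quartile scaling, no filter, limma 3.58.1 on log2(FPKM + 1) and log2(FPKM + 0.1), the replicate block, the log2 CPM of 15 muscle genes as a covariate, those genes left out of library sizes, and each library left out in turn.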

Additional observations from a re-analysis of the deposited data

How the results depend on the processing

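Leaving out single libraries, 4 to 10 members were higher and 0 to 8 lower, and 7 to 32 pathway genes were higher and 4 to 14 lower; without cut 3, 10 members were higher and 8 lower. No member was called lower without sham 2 or with the muscle covariate in edgeR's test (4 and 6 at an unadjusted p under 0.05; DESeq2 with all libraries called 5). With the muscle covariate 4 of the 10 calls were kept, Sema4d was gained, and 11 pathway genes were higher and 4 lower. The covariate is confounded with surgery but for cut 3, so values under it do not measure the part of muscle. Pathway genes called lower numbered 15 in DESeq2 and 14 with the replicate block, where 19.2% and 17.3% of all genes were lower. With the block, members called higher numbered 9, where 21.7% of all genes were higher. The block changed no other member's call than those of Sema3b, Sema3d and Plxna3. The cause of these shifts was not tested. Signs turned with the muscle covariate for Nrp1 (0.021), Plxnd1 (0.032), Plxnb1 (-0.30), Sema3e (-0.81), Sema4c (-0.28), Sema4d (0.83) and Sema6c (0.19), and for Sema4c with muscle genes out of library sizes (-0.0029). They also turned within the ranges without single libraries for Sema3e (-0.15 to 0.55), Sema4c (-0.19 to 0.28) and Sema4d (-0.79 to 0.18). Of 465 values of members under alternatives, 403 kept direction and side of the threshold. Class sums ranged from 0.50 to 0.75 for secreted semaphorins, -0.39 to -0.15 for classes 4 to 7, 0.34 to 0.61 for plexins and -0.02 to 0.24 for neuropilins as log2 ratios without single libraries. In simulated data with 3 libraries per group and 200 of 14561 genes changed, changes of 2-fold were seldom called. That rate cannot be carried over to these data, where 32.7% of genes were called.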
